A study of Homo sapiens with 8 samples.

Results

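The genes described here were 5 of the 60558 genes measured: the chemokine CXCL12, its receptors CXCR4 and ACKR3, and the chemokines CXCL14 and CXCL16. They were picked out of the files by gene symbol, and this set was put together with earlier results of these data known. CXCL12, also called SDF-1, is made mainly by stromal cells, and it draws leukocytes and progenitor cells through CXCR4, a receptor that signals through inhibitory G proteins. ACKR3 binds the same chemokine but acts as an atypical receptor, which takes CXCL12 up and passes its signal to arrestins rather than G proteins. CXCL14 is a chemokine of resting epithelia. CXCL16 is made as a membrane protein, is released by the sheddases ADAM10 and ADAM17, and binds CXCR6 on T cells. In the intestine, CXCL12 and CXCL14 belong to the chemokines found at rest, while CXCL16 is a known target of inflammatory cytokines.

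RNA-seq was performed on 8 libraries of 2D human intestinal epithelial cells (hIECs) differentiated from the human embryonic stem cell line H9, with 2 libraries in each of 4 groups. Normal hIECs received no treatment. Inflamed hIECs were kept for 10 days with IFNγ and TNFα, each at 50 ng/ml. Normal and inflamed hIECs with PM10 (particulate matter) were exposed to it at a dose of 100 μg/ml over 7 days. The labels give a treatment of 10 days for every group, also for the untreated one, and do not say whether the 2 libraries of a group came from separate cultures, so the spread between them may be technical. All groups share the H9 line. The comparisons addressed the effect of PM10 in normal and in inflamed hIECs, the effect of the cytokines without and with PM10, and whether the effect of PM10 differed between the 2 states.

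Values were FPKM, fragments scaled to transcript length and library size, so that levels can be compared between genes. The lowest FPKM above 0 in a library, between 0.164 and 0.228, was worth a mean depth of 1 over the transcript, and genes under that depth were listed at 0. The labelled cell type was checked against marker genes. The epithelial markers VIL1, CDX2, KRT20, MUC2, CHGA and LYZ were listed at 0 in all 8 libraries, CDH1 was above 0 in 1 library, and EPCAM did not exceed 0.622 FPKM, whereas KRT8 lay between 185 and 383 FPKM, KRT18 between 100 and 266 FPKM, SOX9 was at 3.66 FPKM or more in every library and LGR5 lay between 2.01 and 8.28 FPKM. All 11 mesenchymal markers, among them COL1A1, VIM and PDGFRA, passed the expression minimum for testing, which was 1 FPKM in 2 or more libraries. The endothelial markers PECAM1, CDH5, KDR and VWF and the leukocyte markers CD3E and ITGAM were listed at 0 throughout. Of the 13 epithelial markers, 6 were thus at 0 in all libraries and 5 passed the minimum.

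CXCL12 was by far the most expressed of the 5 genes. Its mean over the 8 libraries, 495 FPKM, ranked 126 among all genes, of which 21400 were above 0 in at least 1 library. Averaged over the libraries, its level lay above that of 99.2% of the genes above 0 in the same library. CXCL16 came next with 5.20 FPKM, near the middle of expressed genes at the percentile of 52.9 by the same average. ACKR3 was detected in all 8 libraries but stayed between 0.242 and 0.914 FPKM, at a mean depth of 1.15 to 4.65. CXCR4 was listed at 0 in 7 libraries and at 0.244 FPKM in normal replicate 2, and CXCL14 was listed at 0 in 7 libraries and at 0.225 FPKM in normal replicate 1. These values lay close to the lowest that could be measured, so CXCR4 and CXCL14 could not be told apart from each other or from 0. The order CXCL12, CXCL16, ACKR3 and then CXCR4 and CXCL14 held in each of the 8 libraries. The ligand was abundant, its atypical receptor was near the limit of detection and its classical receptor was not detectable at this depth in most libraries. Of the 5 genes, 2 passed the minimum for testing, CXCL12 and CXCL16.

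**Figure D1:**
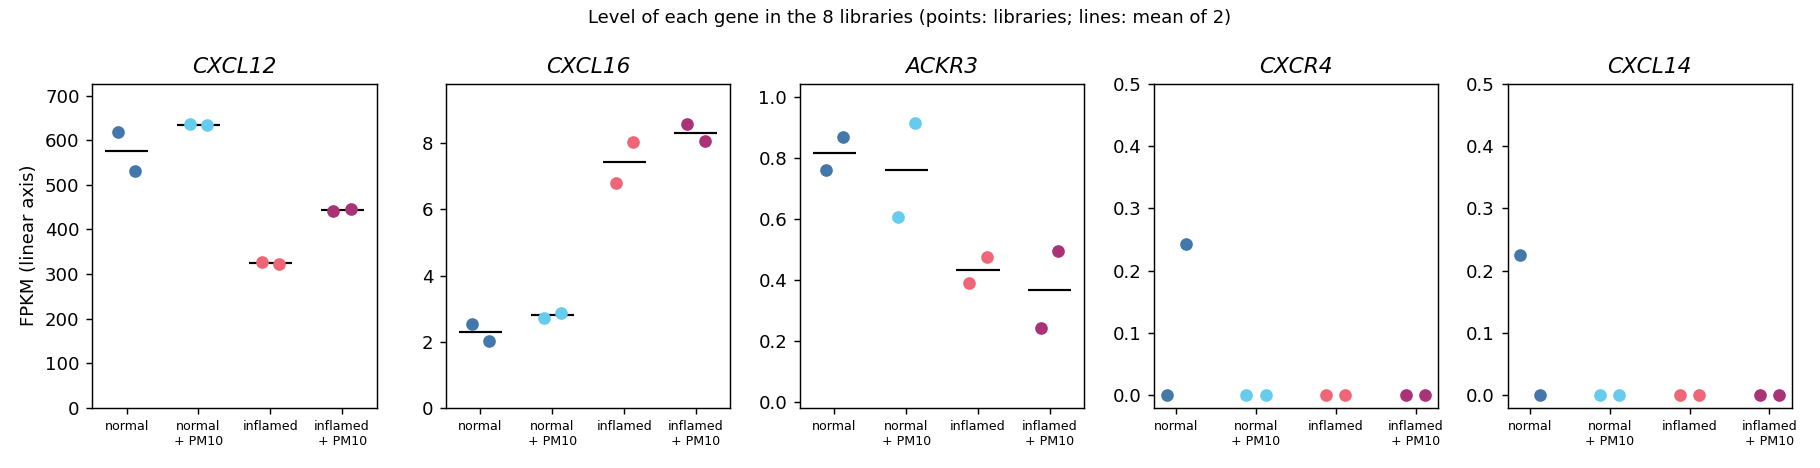
FPKM of CXCL12, CXCL16, ACKR3, CXCR4 and CXCL14 in each of the 8 libraries by group (points; a line marks the mean of the 2 libraries, and is left out for CXCR4 and CXCL14). CXCL12 lay between 322 and 636 FPKM and was lowest in inflamed hIECs, CXCL16 was higher in both cytokine groups, and CXCR4 and CXCL14 were above 0 in 1 library each.

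Positions are from GENCODE release 44 on GRCh38. CXCL12 (ENSG00000107562) lies on chromosome 10, from 44370165 to 44386493 on the minus strand. CXCR4 (ENSG00000121966) lies on chromosome 2, from 136114349 to 136119177 on the minus strand, and ACKR3 (ENSG00000144476) on the same chromosome from 236567787 to 236582354 on the plus strand. CXCL14 (ENSG00000145824) lies on chromosome 5, from 135570679 to 135579279 on the minus strand. CXCL16 (ENSG00000161921) lies on chromosome 17, from 4733533 to 4739928 on the minus strand. The libraries did not keep strand information, so reads of overlapping genes can mix. Exons of CXCL12, CXCR4 and ACKR3 overlapped no other gene. CXCL16 shared 76 exon bases with MED11 on the opposite strand, which did not rise with cytokines (13.4 and 13.8 FPKM in normal, 13.4 and 12.2 FPKM in inflamed hIECs), and 96 exon bases with ZMYND15, which was listed at 0 in 7 libraries.

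The abundant ligand and its nearly undetected receptor are shown by the 250 bases before their RefSeq transcript start (GRCh38.p14, both on the minus strand, written 5′ to 3′ along the gene). The windows are chr10:44385098-44385347 for CXCL12 and chr2:136118150-136118399 for CXCR4, the first of 3 starts listed for the latter. Neither overlaps an exon in GENCODE. ACKR3 and CXCL16 had no entry in the table used. Capitals mark matches to the GC box, GGGCGG or CCGCCC on the other strand, including overlapping matches.
CXCL12: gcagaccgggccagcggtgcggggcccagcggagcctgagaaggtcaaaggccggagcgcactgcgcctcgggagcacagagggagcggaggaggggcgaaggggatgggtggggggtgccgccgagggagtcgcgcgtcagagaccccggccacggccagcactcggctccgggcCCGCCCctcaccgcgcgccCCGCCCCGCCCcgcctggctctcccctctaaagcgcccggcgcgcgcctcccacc
CXCR4: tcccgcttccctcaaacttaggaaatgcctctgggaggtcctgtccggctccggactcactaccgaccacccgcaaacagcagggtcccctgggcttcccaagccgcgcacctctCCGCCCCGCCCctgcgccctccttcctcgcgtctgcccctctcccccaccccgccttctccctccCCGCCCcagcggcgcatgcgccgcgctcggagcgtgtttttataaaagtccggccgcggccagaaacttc
Both windows were rich in G and C, with 78.0% for CXCL12 and 68.0% for CXCR4 against a median of 58.0% over 35116 promoter windows of the same length. They held 31 and 24 CG dinucleotides, against a median of 11. Each held 3 GC boxes, a motif found in 42.6% of all windows. Neither window held the interferon-gamma motif TTCNNNGAA (found in 6.57% of all windows), the interferon-stimulated response element (3.02%) or the kappaB motif (9.96%), when both strands were searched. The letters GCGTG, the core bound by the aryl hydrocarbon receptor, or CACGC had 1 match in the CXCR4 window and none in that of CXCL12, with 32.2% of all windows holding a match. Such matches describe the letters of these windows alone.

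CXCL12 was lower in inflamed hIECs. It measured 619 and 532 FPKM in the normal libraries and 327 and 322 FPKM in the inflamed libraries, so the groups did not overlap. The means were 576 ± 61.8 (SD, n = 2) and 324 ± 3.29 (SD, n = 2), a ratio of 0.564. On the log2(FPKM + 1) scale the difference was -0.82 (SE 0.069, 95% confidence interval -0.98 to -0.66), with an adjusted p = 5.45e-05 by limma. Of 14206 genes tested, 56.2% were called in this comparison, at the threshold of 0.05 on the adjusted p, and 30.3% were lower, so that a call by itself was common. In size, 7.77% of the genes tested had a change as low or lower.

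With PM10 present in both groups, CXCL12 was again lower with the cytokines. It measured 636 and 634 FPKM in normal hIECs with PM10 and 441 and 447 FPKM in inflamed hIECs with PM10. The ratio of the means was 0.699 and the log2 difference was -0.52 (interval -0.68 to -0.35, adjusted p = 0.000436, limma). In this comparison 65.4% of genes were called and 39.6% were lower, and the median over all genes was -0.11, or -0.059 when each library was centred on its median. CXCL12 changed by less than 2-fold on the log2 scale in every comparison.

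PM10 raised CXCL12 in inflamed hIECs, from 327 and 322 FPKM to 441 and 447 FPKM. The inflamed libraries with PM10 lay between those of inflamed and normal hIECs and overlapped neither. The ratio of the means, 324 ± 3.29 and 444 ± 4.18 (SD, n = 2 each), was 1.37, and the log2 difference was 0.45 (SE 0.069, interval 0.29 to 0.61, adjusted p = 0.0072, limma). Of all genes tested, 15.2% were called here, with 6.22% higher and 9.02% lower, and the change of CXCL12 lay above that of 97.2% of the genes tested. Leaving out inflamed replicate 2 or inflamed PM10 replicate 2 left the size at 0.44 but moved the adjusted p to 0.0541 and 0.0522 by limma.

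In normal hIECs, the effect of PM10 on CXCL12 did not pass the test. The levels were 619 and 532 FPKM without and 636 and 634 FPKM with PM10, the log2 difference was 0.15 (interval -0.017 to 0.31) and the adjusted p was 0.211 by limma, in a comparison where 9.23% of genes were called, 5.51% higher and 3.72% lower. In CXCL12 the 2 normal libraries differed more from each other than the libraries of any other group did. Mitochondrial genes took 24.2% of the summed FPKM in normal replicate 2, the highest share of the 8 libraries. The share was 20.4% and 20.2% in normal hIECs with PM10, 16.9% in both inflamed libraries, and 15.5% and 15.7% in inflamed hIECs with PM10, with normal replicate 1 near the inflamed libraries. With the libraries scaled to a common sum without those genes, the PM10 difference of CXCL12 in normal hIECs was 0.19 (adjusted p = 0.104, limma). Without normal replicate 1 the difference was 0.26 (adjusted p = 0.00631, limma), and without normal replicate 2 it was 0.036. The difference between the PM10 effects in inflamed and normal hIECs was 0.31 (SE 0.098, interval 0.076 to 0.54, unadjusted p = 0.0159, limma) and its adjusted p was 0.116 by limma, where 6.6% of genes were called. Without normal replicate 1 this difference was 0.20 (adjusted p = 0.0325) and without normal replicate 2 it was 0.42 (adjusted p = 0.00399), both by limma and both past the threshold. The size of this difference thus moved with the normal library kept, and with all 8 libraries it did not pass the threshold. Ordered by group, CXCL12 was highest in normal hIECs with PM10 and in normal hIECs, which were not told apart, followed by inflamed hIECs with PM10 and then inflamed hIECs.

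Marker levels moved along with these groups. The summed level of the 11 mesenchymal markers was 5097 to 5112 FPKM in normal hIECs, 4424 to 4449 in normal hIECs with PM10, 5791 to 5864 in inflamed hIECs and 5116 to 5134 in inflamed hIECs with PM10. The sum of the 13 epithelial markers, carried by keratins, was 658 to 667, 614 to 651, 356 to 361 and 299 to 317 FPKM in the same order. That of 8 neuronal markers was 337 to 358, 388 to 389, 192 to 195 and 197 to 201 FPKM. With cytokines and no PM10, 1 of 5 epithelial markers tested rose and 3 fell. Of 6 neuronal markers tested, 1 rose and 3 fell, against 25.9% and 30.3% of all genes tested. Against these sums, LGR5 went from a mean of 2.32 to 5.47 FPKM and SYP from 1.72 to 2.64 FPKM. Leukocyte markers summed to at most 1.83 FPKM and endothelial markers to at most 0.486 FPKM in any library. The mesenchymal sum was highest in inflamed hIECs, where CXCL12 was lowest, but its members did not move together. With cytokines and no PM10, 5 of the 11 rose and 4 fell, against 25.9% and 30.3% of all genes tested. ACTA2 rose from a mean of 688 to 1015 FPKM and TAGLN from 876 to 1376 FPKM, while COL3A1 fell from 1024 to 708 FPKM and PDGFRA from 31.1 to 18.8 FPKM. With PM10 in inflamed hIECs, where CXCL12 rose, 1 of the 11 rose and 6 fell, against 6.22% and 9.02% of all genes tested. In bulk RNA, fewer cells of a type and less RNA per cell cannot be told apart, and the part of these markers in the CXCL12 result was not tested.

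CXCL16 rose with the cytokines. It measured 2.52 and 2.03 FPKM in normal hIECs and 6.80 and 8.05 FPKM in inflamed hIECs, with no overlap. The means were 2.28 ± 0.348 and 7.42 ± 0.880 (SD, n = 2 each), a ratio of 3.26, and the log2 difference was 1.36 (SE 0.10, interval 1.12 to 1.60, adjusted p = 3.04e-05, limma). In this comparison 25.9% of genes were called higher and 4.12% were higher by at least 2-fold, as CXCL16 was. With PM10 in both groups the levels were 2.72 and 2.87 against 8.58 and 8.06 FPKM, and the log2 difference was 1.29 (interval 1.06 to 1.53, adjusted p = 2.76e-05, limma). Here 25.8% of genes were called higher and 5.32% were higher by at least 2-fold.

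The effect of PM10 on CXCL16 passed the test in neither state. The log2 difference was 0.22 in normal hIECs (interval -0.023 to 0.45, adjusted p = 0.208, limma) and 0.15 in inflamed hIECs (interval -0.090 to 0.39, adjusted p = 0.355, limma). The interaction of PM10 and cytokines was -0.067 (interval -0.40 to 0.27, adjusted p = 0.825, limma). The interval of the interaction holds changes of either sign. In order, inflamed hIECs with PM10 and inflamed hIECs were highest and not told apart, and normal hIECs with PM10 and normal hIECs were lowest and not told apart. With cytokines, CXCL12 and CXCL16 moved in opposite directions from normal hIECs, the former down and the latter up.

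**Figure D2:**
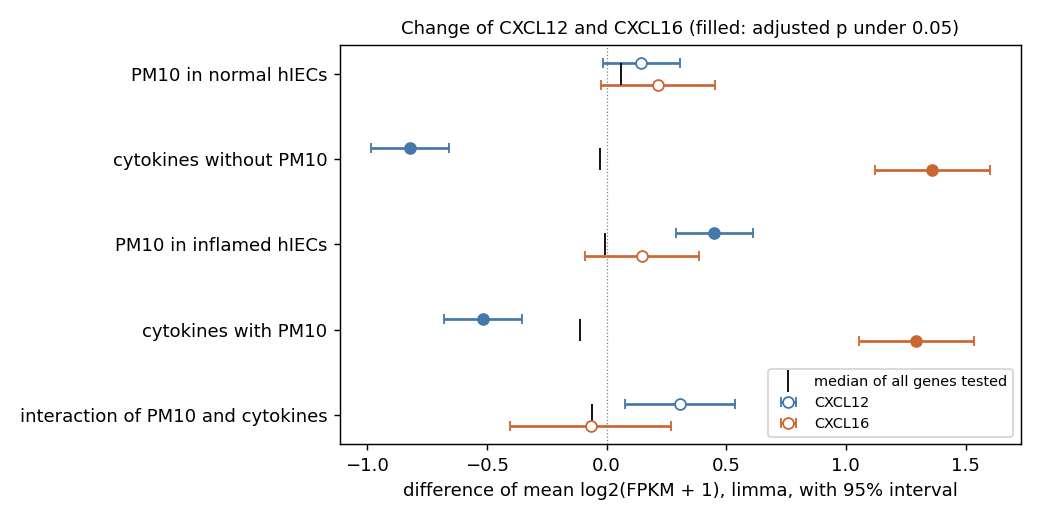
Log2 differences of CXCL12 and CXCL16 in the 5 comparisons, on the log2(FPKM + 1) scale, as points with 95% confidence intervals from limma. The cytokine differences of CXCL12 (-0.82 and -0.52) and CXCL16 (1.36 and 1.29) lay on opposite sides of 0, and the PM10 difference in inflamed hIECs was above 0 for CXCL12 at 0.45.

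ACKR3 did not reach the minimum of 1 FPKM in any library and stayed out of the main test. It measured 0.761 and 0.870 FPKM in normal hIECs, 0.606 and 0.914 in normal hIECs with PM10, 0.391 and 0.475 in inflamed hIECs, and 0.242 and 0.494 in inflamed hIECs with PM10. All 4 libraries with cytokines lay below all 4 without, while the groups with and without PM10 overlapped in both states. Over the pooled states the levels were 0.788 ± 0.137 without and 0.400 ± 0.115 FPKM with cytokines (SD, n = 4 each), a log2 difference of -0.35 with p = 0.0286 by a two-sided exact permutation test, the smallest that 4 against 4 can give. That test was chosen after the values were seen and was not adjusted. When limma was run without the expression minimum on 21400 genes, ACKR3 differed by -0.34 without PM10 (adjusted p = 0.0722) and by -0.36 with PM10 (adjusted p = 0.0514), neither past the threshold. Between hIECs with and without PM10, its differences were -0.050 in normal and -0.073 in inflamed hIECs (adjusted p = 0.879 and 0.835, limma). The lower level with cytokines was thus seen in every pair of libraries but rested on a mean depth of a few bases.

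CXCR4 and CXCL14 gave no comparison. Each was above 0 in 1 library, both of them normal hIECs, which leaves a permutation test nothing to compare. No fold change is given because the other groups were listed at 0. CXCL14 shared 108 exon bases with SLC25A48 and 95 with ENSG00000250167, and these neighbours were at 0 in every library.

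Other ligands and partners of the receptors were examined next: CXCL11, an interferon-induced ligand of ACKR3 and CXCR3, MIF, a cytokine that acts through CXCR4, HMGB1, which can bind CXCL12, and CD74, a receptor for MIF. Of these 4 genes, 2 rose and 1 fell with cytokines, both without and with PM10. CXCL11 measured 0.525 and 0.432 FPKM in normal hIECs and 316 and 312 FPKM in inflamed hIECs, a log2 difference of 7.74 (adjusted p = 3.94e-10, limma). It reached 1 FPKM in 4 libraries, all with cytokines. CXCL11 thus entered the test only through the groups where it was high, and its call and its place among the 2 that rose rest on that. CD74 measured 6.52 and 5.07 FPKM in normal and 156 and 161 FPKM in inflamed hIECs, a difference of 4.56 (adjusted p = 5.26e-08). MIF measured 381 and 394 FPKM in normal and 248 and 272 FPKM in inflamed hIECs, a difference of -0.57 (adjusted p = 9.27e-05, limma). Of its exon bases, 94.1% overlap MIF-AS1 on the other strand. MIF-AS1 was listed at only 1.92 to 4.65 FPKM, but without strand information the split of reads between them is uncertain. HMGB1 did not pass in any comparison. In inflamed hIECs CXCL11, a ligand of ACKR3, was high. ACKR3 itself was under 1 FPKM in every library of all groups, and its cytokine differences did not pass limma. The median change over the 4 genes, CXCL11 included, was 2.19 without PM10, against -0.028 over all genes tested, of which 25.9% rose and 30.3% fell.

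PM10 in normal hIECs lowered CD74, from a mean of 5.79 to 3.95 FPKM (log2 difference -0.45, adjusted p = 0.0327, limma), a call that was lost in 9 of 17 alternative analyses, among them those without any 1 library of the other 3 groups (adjusted p = 0.0637 to 0.152, limma). No partner gene passed the test for PM10 in inflamed hIECs, where CXCL11 was 316 and 312 FPKM without and 351 and 357 FPKM with PM10 (adjusted p = 0.0690, limma).

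Enzymes that cut CXCL12 were higher in several comparisons. The list held 10 genes, the matrix metalloproteinases MMP1, MMP2, MMP3, MMP9, MMP13 and MMP14, the dipeptidyl peptidase DPP4, the carboxypeptidase CPM, and the neutrophil proteases CTSG and ELANE. Of these, 6 passed the minimum. MMP3, CTSG and ELANE were listed at 0 in all libraries, and DPP4 was above 0 in 3 of the 4 libraries with cytokines, at 0.270 to 0.371 FPKM, and in none of the others. With cytokines but no PM10, 5 of the 6 rose and 1 fell, against 25.9% and 30.3% of all genes tested, and the median change was 0.94 over the list. MMP9 measured 5.95 and 5.39 FPKM in normal hIECs and 195 and 196 FPKM in inflamed hIECs (log2 difference 4.88, adjusted p = 3.29e-09, limma), and 18.4% of its exon bases overlap SLC12A5-AS1, which did not exceed 3.14 FPKM. MMP2, a gelatinase expressed at a higher level, was the enzyme that fell, from a mean of 76.8 to 58.9 FPKM (difference -0.37, adjusted p = 0.00222). With PM10 in both groups 4 of the 6 rose and 1 fell, against 25.8% and 39.6% of all genes tested, the fall then being that of MMP14 at -0.21 (adjusted p = 0.0154), a call that was lost without normal PM10 replicate 2 (adjusted p = 0.0822), inflamed PM10 replicate 1 (0.0614) or inflamed PM10 replicate 2 (0.0700), by limma.

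PM10 in inflamed hIECs raised 5 of the 6 enzymes and lowered none, against 6.22% and 9.02% of all genes tested, with a median change of 0.58 over the list and -0.0061 over all genes. MMP1 rose from 2.54 and 2.89 FPKM to 6.77 and 7.72 FPKM (log2 difference 1.15, adjusted p = 0.0012, limma). MMP2 rose from 60.0 and 57.9 to 93.2 and 89.1 FPKM (0.62, adjusted p = 0.0017). MMP13, a collagenase, rose from 24.8 and 24.5 to 38.9 and 40.0 FPKM (0.66, adjusted p = 0.000793). CPM rose from 4.95 and 4.89 to 7.46 and 7.81 FPKM (0.55, adjusted p = 0.00321), MMP9 by 0.38 (adjusted p = 0.0046), and MMP14 did not pass the test (0.12, adjusted p = 0.193), by limma. CPM shares 1.77% of its exon bases with MDM2 on the opposite strand. MDM2 moved the same way, from 10.2 and 10.9 to 12.7 and 12.8 FPKM, and its part in the level of CPM was not tested. In the same comparison CXCL12 mRNA was also higher, so that transcripts of the ligand and of enzymes able to cut it rose together. Each of the 5 enzyme calls held in all 17 alternatives.

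In normal hIECs PM10 raised 4 of the 6 enzymes, MMP1, MMP9, MMP13 and MMP14, against 5.51% of all genes tested. MMP9 rose from a mean of 5.67 to 10.3 FPKM (log2 difference 0.76, adjusted p = 0.0008, limma), and MMP14, a protease anchored in the cell membrane, rose from 170 to 275 FPKM (0.70, adjusted p = 0.00179). MMP1 rose from 1.27 to 2.69 FPKM, a larger ratio of means (2.11) than that of MMP9 (1.82) but a smaller log2 difference, 0.70 (adjusted p = 0.0131). Leaving out a library moved the MMP1 call, and without normal replicate 2, normal PM10 replicate 1 or normal PM10 replicate 2 its adjusted p was 0.0517, 0.0533 and 0.0847 by limma. All 4 calls were lost when only the 4 libraries compared were fitted, where 23 genes in all were called, and so were those of CD74, RGS4 and RGS16 in this comparison. Over all genes, 59.7% of the genes called in this comparison were higher, and 42.9% when each library was centred on its median.

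**Figure D3:**
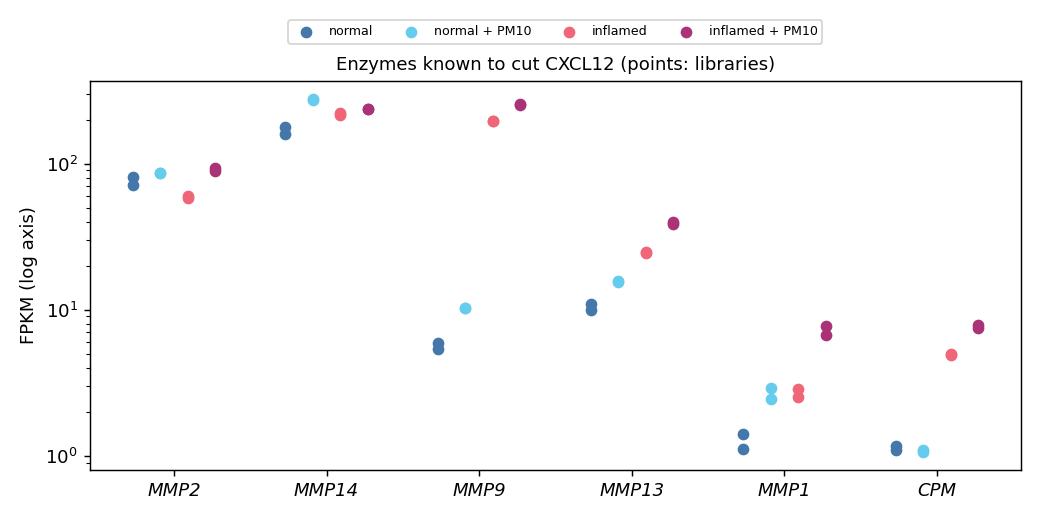
FPKM on a log axis of the 6 enzymes that cut CXCL12 and passed the minimum, with a point for each of the 8 libraries, coloured by group. MMP9 averaged 5.67 FPKM in normal and 195 FPKM in inflamed hIECs, and MMP1, MMP2, MMP9, MMP13 and CPM were each higher in inflamed hIECs with PM10 than without.

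The list of receptor signalling and desensitisation held 16 genes, of which 14 passed the minimum, comprising inhibitory G proteins, receptor kinases, arrestins, regulators of G protein signalling (RGS) and the ubiquitin ligase ITCH, which marks CXCR4 for degradation. With cytokines but no PM10, 3 of the 14 rose and 5 fell, against 25.9% and 30.3% of all genes tested, a share near the background. With PM10 in both groups 5 rose and 6 fell, against 25.8% and 39.6% of all genes tested. GRK3, counted among those that rose, reached 1 FPKM in 4 libraries, all with cytokines, and entered the test only through them. RGS16 measured 10.7 and 10.1 FPKM in normal and 61.1 and 61.4 FPKM in inflamed hIECs (log2 difference 2.45, adjusted p = 5.26e-08, limma). GNAI2, an inhibitory G protein, rose from a mean of 123 to 168 FPKM (0.45), while GNAI1 fell from 13.1 to 7.43 FPKM (-0.74). ARRB2, an arrestin that binds ACKR3 and CXCR4, fell from 10.5 and 11.1 to 6.83 and 7.20 FPKM (-0.56), and RGS4 fell from 15.6 and 14.6 to 6.81 and 7.93 FPKM (-0.95). The cytokine calls of these 5 genes held in all 17 alternatives, while those of the receptor kinases GRK2, GRK3 and GRK6 and of RGS14 were each lost in at least 1 comparison when a library was left out. The other arrestin of the list, ARRB1, was not called with cytokines, at -0.025 without PM10 (adjusted p = 0.832) and 0.13 with PM10 (adjusted p = 0.241), by limma. The median change over the list was 0.00078 without PM10, against -0.028 over all genes.

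With PM10, 2 of the 14 signalling genes were called in normal hIECs, where 9.23% of all genes were called, and 3 in inflamed hIECs, where 15.2% were. In normal hIECs RGS16 rose, to 16.1 and 15.3 FPKM (log2 difference 0.55), and RGS4 fell, to 10.6 and 9.50 FPKM (-0.54), the latter not called without normal replicate 2, normal PM10 replicate 1 or normal PM10 replicate 2 (adjusted p = 0.0513, 0.0670 and 0.103, limma). In inflamed hIECs GNAI2 and ITCH rose and RGS4 fell, with ITCH going from 6.14 and 6.49 to 9.99 and 11.9 FPKM (0.70, adjusted p = 0.0128, limma). The RGS4 and GNAI2 calls in inflamed hIECs were lost in 10 and 8 of 17 alternatives, 6 of them for each gene the removal of a library other than the normal ones. The call of ITCH was lost without inflamed replicate 1 (adjusted p = 0.0773), inflamed replicate 2 (0.0614) or inflamed PM10 replicate 2 (0.0790), by limma. Exon bases of ITCH overlap ENSG00000289720 by 23.4%.

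**Figure D4:**
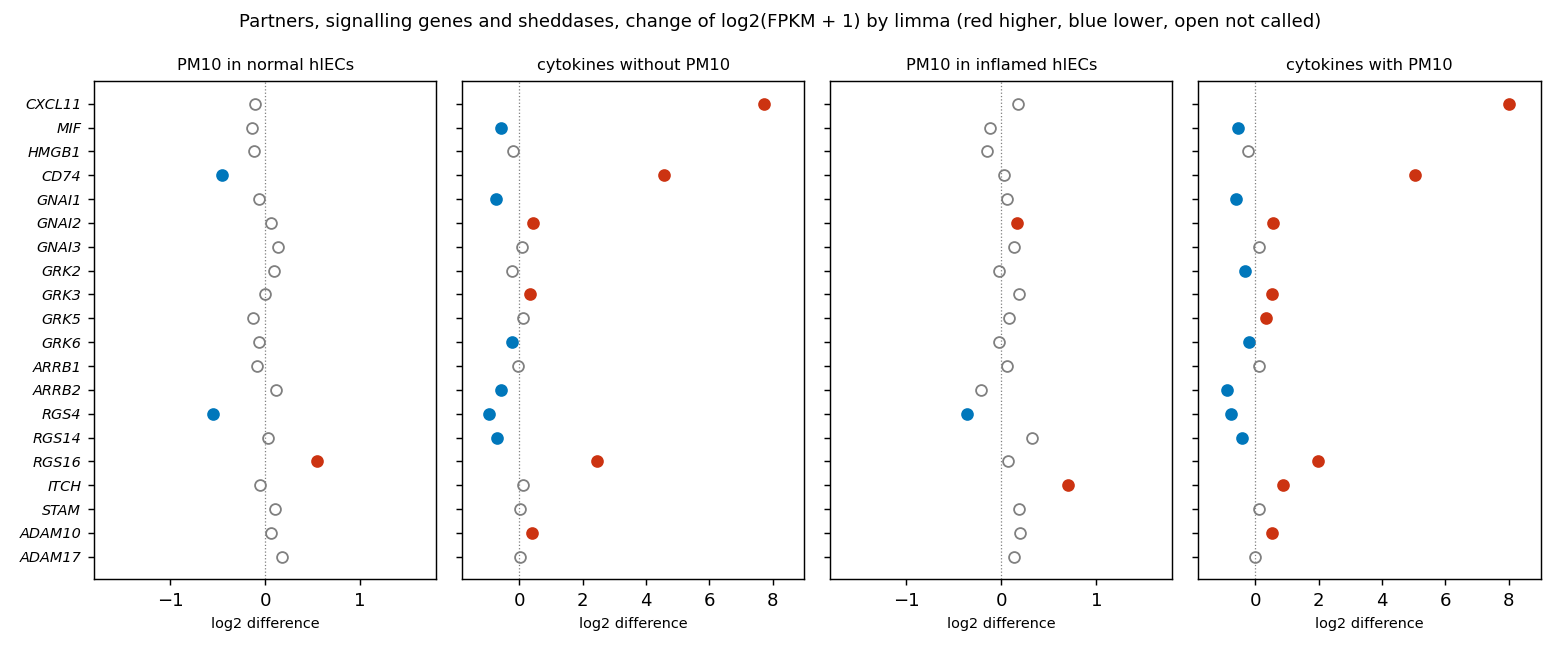
Log2 differences (limma, log2(FPKM + 1) scale) of the partner, signalling and sheddase genes in 4 comparisons, with red points called higher, blue points called lower and open points not called. CXCL11, CD74 and RGS16 lay farthest to the right with cytokines, at 7.74, 4.56 and 2.45 without PM10.

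For CXCL16, the sheddase ADAM10 rose with cytokines and ADAM17 did not pass the test in any comparison. The exon bases of ADAM17 overlap IAH1 on the opposite strand by 10.3%. IAH1 measured 26.5 and 23.1 FPKM in normal hIECs and 18.6 and 18.8 FPKM in inflamed hIECs with PM10, so the level of ADAM17 is uncertain. ADAM10 measured 5.97 and 5.46 FPKM in normal hIECs, 7.71 and 8.12 in inflamed hIECs, and 9.28 and 9.08 in inflamed hIECs with PM10. Its log2 differences were 0.41 without PM10 (adjusted p = 0.00155, limma) and 0.54 with PM10 (adjusted p = 0.000296, limma). The receptor CXCR6 was listed at 0 in all 8 libraries, as was the T cell marker CD3E.

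No other chemokine found at rest passed the minimum. Of 11 such ligands and receptors, CCL19, CCL21, CCL28, CXCL13, CXCL17, CCR7, CCR9 and CXCR5 were listed at 0 in all libraries. CCR10, the receptor of CCL28, was the highest of them over the libraries, at 0.292 to 0.642 FPKM. However, 17.7% of its exon bases overlap CNTNAP1 on the opposite strand, which lay between 4.33 and 6.41 FPKM, so the level of CCR10 is uncertain. Among 5 other atypical receptors, none passed the minimum and ACKR2, CCRL2 and GPR182 were listed at 0.

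The genes whose levels were most like those of CXCL12 over the 8 libraries, by Pearson correlation of log2(FPKM + 1) among 12382 protein-coding genes, were PTPRU (r = 0.992), EEF1A2 (r = 0.991) and SDK2 (r = 0.990). In all, 527 genes reached r = 0.9 with CXCL12. For CXCL16 they were PAPSS2, B3GNT2 (r = 0.997 each) and MCUR1 (r = 0.996), and 2135 genes reached r = 0.9. The 8 points share 4 groups and their sequencing, so these values describe likeness across groups and carry no test. PTPRU, a receptor tyrosine phosphatase, measured 9.28 and 8.72 FPKM in normal hIECs, 5.41 and 5.69 in inflamed hIECs and 7.48 and 7.42 in inflamed hIECs with PM10, the same order of groups as CXCL12.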

How the data were processed

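RNA-seq was performed by the authors on 8 libraries of 2D hIECs, poly-A selected and without strand information. Per the labels and the study's methods, reads were trimmed by the authors (Cutadapt 3.7, Sickle 1.33), aligned to GRCh38 (HISAT2 2.2.1) and turned into expression estimates (StringTie 2.2.0). The annotation release is not given in the sources used here, and 99.5% of the identifiers matched GENCODE release 44. The deposited values are FPKM, with no further scaling between libraries. Read counts were not analysed here, so counting intervals could not be given, and the lowest FPKM above 0 put the aligned bases at 4.38 to 6.11 gigabases per library.

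limma 3.58.1 (R 4.3.3), with a variance trend and all 8 libraries, was fitted to log2(FPKM + 1), which shrinks changes of low genes. A gene was tested if 2 or more libraries reached 1 FPKM, which left 14206 genes. Benjamini-Hochberg adjustment was made separately for the 5 comparisons, with 0.05 as the threshold. With 2 against 2 libraries an exact permutation test cannot go below p = 0.333. An exact permutation test of ACKR3, CXCR4 and CXCL14 was chosen after the data were seen, and for the latter pair, above 0 in 1 library each, it was void. Tested on simulated data for cytokines without PM10, limma called 180 of 200 changed genes among 14206, and 5.76% of its calls were unchanged genes. The simulation drew normally distributed noise and changed only those 200 genes. In the data 56.2% of genes were called in this comparison, so these rates need not hold there. Python 3.11.15, pandas 2.3.3 and scipy 1.17.1 were used otherwise.

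The 5 genes and the lists were chosen with earlier results of these data known. Named genes are the 5 genes in every library, genes of the chemokine lists with a mean of at least 1 FPKM or named as ligand, receptor or protease of a member, and the 3 protein-coding genes most correlated with each tested member. Alternatives changed the scaling, pseudocount, minimum, trend, libraries fitted, replicate block and each library left out.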

Additional observations from a re-analysis of the deposited data

Results flagged for a closer look

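The effect of PM10 differed between inflamed and normal hIECs for 5 genes of the lists around CXCL12, none of them among the 5 genes described here. This was by the interaction term of limma (937 genes called, 6.6% of those tested, of which 32.0% were higher, or 46.6% after quantile normalization). In the lists, 2 of the 6 enzymes tested were called higher and 2 lower, and 1 of the 14 signalling genes was lower. None of the 4 partner genes or the 2 sheddases passed. MMP2, which rose with PM10 in inflamed hIECs, had a log2 interaction of 0.44 (adjusted p = 0.0366, limma). CPM, which overlaps MDM2 as given above, had 0.58 (adjusted p = 0.0188, limma). MMP9 had -0.38 (adjusted p = 0.0298), MMP14 had -0.57 (adjusted p = 0.0112) and RGS16 had -0.47 (adjusted p = 0.0136), by limma, each with the larger log2 rise in normal hIECs. In FPKM the rise of MMP9 was larger in inflamed hIECs, from a mean of 195 to 255, against 5.67 to 10.3 in normal hIECs. The call of MMP2 was lost in 8 of 16 alternatives, that of MMP9 in 7, that of CPM in 6, that of RGS16 in 5 and that of MMP14 in 4, most of them the removal of a library of normal hIECs with PM10 or of either inflamed group (adjusted p = 0.0526 to 0.124, limma).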

How the results depend on the processing

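The cytokine differences of CXCL12 (-0.93 to -0.61 without PM10 and -0.53 to -0.34 with PM10) and of CXCL16 (1.25 to 1.66 and 1.25 to 1.54) kept direction and call in all 17 alternatives each. With each library left out in turn, so that the lone library of its group was taken to vary like the others, the PM10 difference of CXCL12 ranged from 0.036 to 0.26 in normal hIECs and from 0.44 to 0.46 in inflamed hIECs, and its interaction from 0.20 to 0.42. Genes called ranged from 194 to 2627 for PM10 in normal hIECs, from 675 to 2992 for PM10 in inflamed hIECs and from 263 to 1266 for the interaction. For PM10 in normal hIECs, 2032 genes were called with libraries scaled to a common sum without mitochondrial genes (75.4% higher), and 23 when only the groups compared were fitted, the latter with fewer libraries. Under the first scaling the authors' FPKM of CXCL12 averaged 637 in normal hIECs with PM10 and 453 in inflamed hIECs with PM10. The interaction of CXCL12 was 0.35 under median centring (adjusted p = 0.0469, limma), and over its alternatives the adjusted p ranged from 0.00399 to 0.266. The cause of these moves was not tested.

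Replicate numbers did not pair the libraries: the deviations of same-numbered libraries correlated between -0.0015 and 0.079. With the replicate block, 1051, 7957, 1966, 9264 and 762 genes were called, against 1311, 7988, 2165, 9286 and 937, for PM10 in normal hIECs, cytokines without PM10, PM10 in inflamed hIECs, cytokines with PM10 and the interaction, and no call of CXCL12 or CXCL16 changed. Levels under 1 FPKM rest on a mean depth of a few bases, which limits ACKR3, CXCR4 and CXCL14.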
